A study of Mus musculus with 9 samples.

Results

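Semaphorins, plexins and neuropilins form a ligand and receptor system that guides axons, vessels and migrating cells. In this gene family, 32 genes were measured in the embryonic mouse optic cup, out of 18193 genes with a probe set that names 1 gene. They were chosen by symbol: every Sema3 to Sema7 gene, every Plxna to Plxnd gene, Nrp1 and Nrp2. They comprise 20 semaphorins, 9 plexins, 2 neuropilins and Plxna4os1, an RNA antisense to Plxna4 that the symbol rule takes in. They had 79 probe sets on the array, and each gene is described by its brightest probe set over the 9 arrays.

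All 9 samples were mouse optic cup at the embryonic stage E11.5, cut out by laser microdissection, with 1 Affymetrix Mouse Genome array each. There were 3 regions with 3 samples each, lettered A, B and C. The optic fissure samples took cup cells up to 5 cell diameters away from the margin of the fissure, the ventral cleft that later closes, and the others came from the nasal and the temporal cup. The labels give no strain, genotype or treatment, and do not say whether a sample pooled embryos or whether regions of 1 letter shared them, so each p-value speaks of the spread among these samples only, which may be technical in part.

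Semaphorins signal through plexins, whose cytoplasmic part acts on small GTPases and so on the cytoskeleton. Most class 3 semaphorins are secreted and need a neuropilin as the ligand-binding partner of a plexin A or of Plxnd1, whereas Sema3e binds Plxnd1 directly. Semaphorins of classes 4 to 6 span the membrane and bind plexins without a neuropilin, and Sema7a, held on a lipid anchor, binds Plxnc1. In the eye the family is known for steering retinal axons, retinal vessels and the layering of neurites.

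Each fissure result stands beside differences in cell type markers. In fissure against the mean of both cup regions, 4 of 4 tested ventral cup and stalk markers were higher. So were 11 of 11 leukocyte markers, and 4 of 9 optic cup markers (Pax6, Hes5, Fgf15 and Sfrp2) were lower. The other optic cup markers did not pass and ran in both directions. Lhx2 changed by 0.62 (limma adjusted p = 0.0821) and Six3 by 0.20, while Rax, Sox2 and Six6 changed by -0.42, -0.30 and -0.19. With the letter as a block, 1 optic cup marker was higher and 4 were lower. The summed leukocyte level was 2840 to 3322 in the fissure arrays against 417 to 782 in the cup arrays. Of 7 tested lens markers 4 were higher, and of 11 periocular mesenchyme markers 3 were higher and 2 lower. Some markers, among them Ntn1, C1qa, C1qc, Aif1 and Eya2, reached the brightness needed for the test only through the fissure arrays, where they are high. Others, among them Hes5 and Neurod1, reached it only through the cup arrays, where they are high. The filter favoured the direction of such markers, so their place in these counts is not separate support. Of 8 pigment epithelium markers 1 was higher and 4 lower, of 8 retinal neuron markers 2 were lower, and none of 4 erythroid markers passed (3 at an unadjusted p below 0.05; 3 were higher with the letter as a block). None of 7 tested endothelial markers passed (2 at an unadjusted p below 0.05; 1 was higher with the letter as a block), with a summed level of 287 to 526 against 246 to 371. Pecam1, a defining endothelial gene, read between 1.4 and 14.7 on every array, while other endothelial markers were brighter. In the fissure, nasal and temporal cup, Egfl7 had means of 98.0, 72.1 and 64.1, and Emcn of 50.0, 30.5 and 27.2. Tek had means of 40.1, 39.1 and 42.8. The median change over the 7 tested endothelial markers was 0.33, against 0.04 over all tested genes. The 3-prime to 5-prime Gapdh signal ratio, a sign of RNA quality, was 8.12, 4.93 and 15.0 in fissure samples A, B and C and 4.46 to 8.77 in the others. The part of these differences in the results for single genes was not tested.

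Of the 32 genes, 28 were bright enough to test, and 9 of those differed between the fissure and the mean of the nasal and temporal cup. Sema3c, Sema3d, Sema5a, Sema6d, Nrp1 and Nrp2 were higher in the fissure (6 of 28, against 5.72% of all tested genes), and Sema3a, Sema3e and Plxnc1 were lower (3 of 28, against 2.88%). Sema3d is in this count although it reached the brightness needed for the test only through the fissure arrays, where it is high. A gene was called at a limma p below 0.05 after Benjamini-Hochberg adjustment over 12773 tested genes, and the members' share was 32.1% against a background of 8.6% of all tested genes. The median change over the 28 genes was 0.05, and over all tested genes 0.04, on the log2(intensity + 16) scale used for every change given here. Fissure arrays did not overlap with any cup array for the same 9 genes, again 32.1%, against 14.2% of all tested genes (8.41% higher and 5.76% lower). With the letter as a replicate block 11 of the 28 passed, against 16.9% of all genes, and with array weights 14 passed, against 32.1% of all genes. Against the nasal cup alone 10 passed, 6 higher and 4 lower (35.7%, against 6.37% of all genes, 4.41% higher and 1.97% lower). Against the temporal cup alone 7 passed, 4 higher and 3 lower (25.0%, against 5.36% of all genes, 3.47% higher and 1.89% lower). With the block these counts were 12 and 10, against 12.4% and 12.1% of all genes, and with array weights 11 passed against the temporal cup, as did 24.5% of all genes. Both comparisons use the same fissure arrays. Fissure array B correlated at 0.971 with fissure A and 0.964 with fissure C. With nasal A, B and C it correlated at 0.964, 0.970 and 0.960, and with temporal A, B and C at 0.968, 0.967 and 0.961. Without fissure array B, 10 of the 28 passed, the same 9 and Plxnd1. The share of all genes passing in that fit is not reported here, so this count is not read against it. In whole tissue, fewer cells of a type and less RNA per cell cannot be told apart here, and precision is limited by how few arrays there are.

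**Figure D1:**
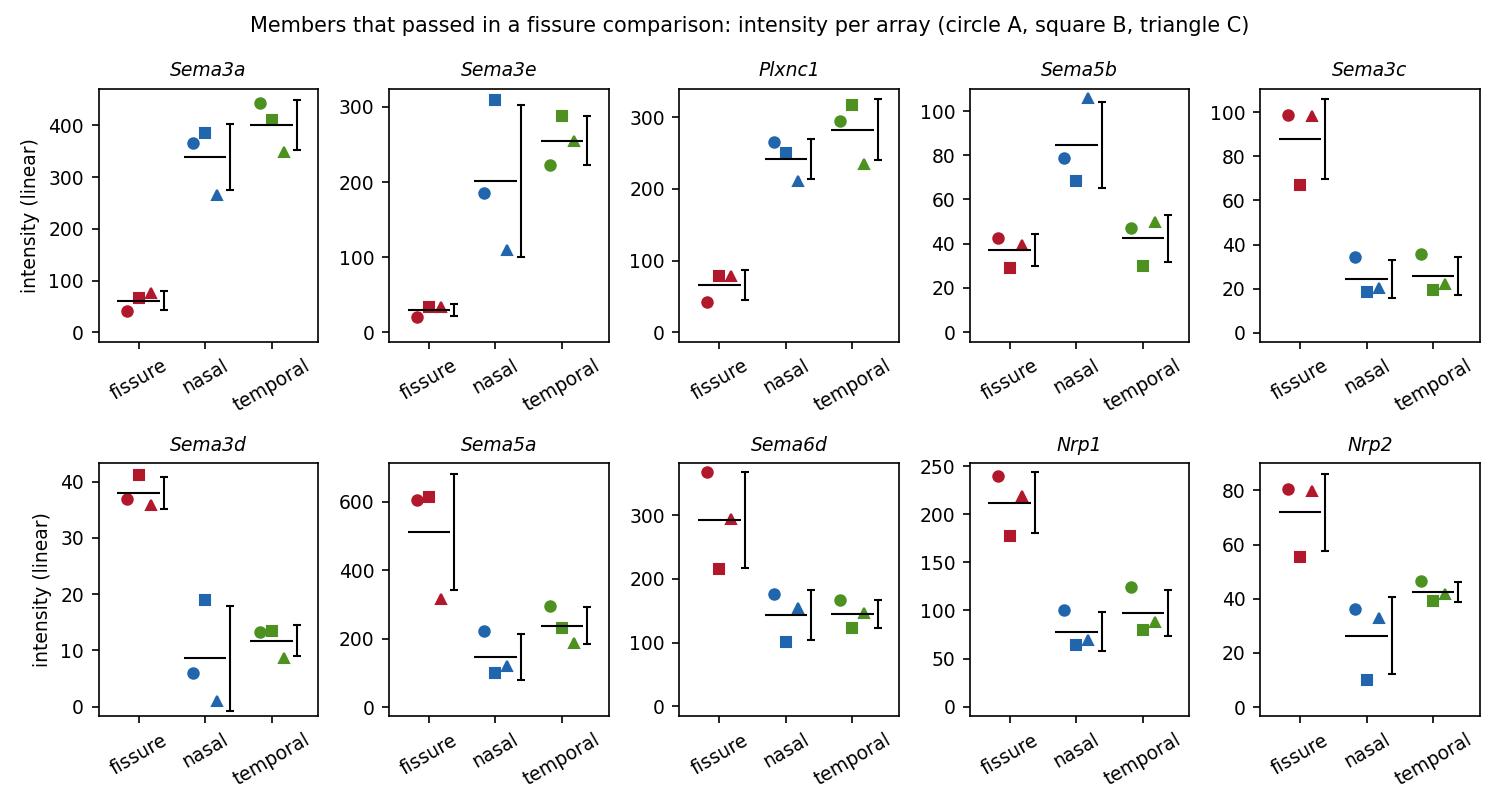
Intensity on each array (linear scale, arbitrary units) of the 10 genes that passed in at least 1 fissure comparison, by region, with symbols for sample letters; lines are means and bars are SD over 3 arrays. Fissure arrays lie below all cup arrays for Sema3a, Sema3e and Plxnc1 and above all of them for Sema3c, Sema3d, Sema5a, Sema6d, Nrp1 and Nrp2, while Sema5b overlaps with the temporal arrays.

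The class 3 semaphorins, the secreted ligands, held the 2 largest changes of the family, Sema3e and Sema3a, both lower in the fissure. Changes within the class ran in both directions. Of 7 class 3 genes 6 were tested, and 2 were lower in the fissure and 2 higher, where 2.88% of all tested genes were lower and 5.72% higher. Those 4 genes lie along chromosome 5 in the order Sema3d, Sema3a, Sema3e and Sema3c, a layout looked up after their values were seen. Sema3d and Sema3c, at the ends of that order, were higher in the fissure, and Sema3a and Sema3e, between them, were lower. Sema3d was bright enough to test only through the 3 fissure arrays, where it is high, so its place among the higher genes is not separate support. The RefSeq gene table lists 0 protein-coding genes between Sema3d and Sema3a, 3 between Sema3a and Sema3e and 15 between Sema3e and Sema3c. Of these, 1 of the 3 and 4 of the 15 had a probe set that names 1 gene, so most were not measured here. Only 2 were bright enough to test, and neither passed. Pclo changed by 0.53 (limma adjusted p = 0.0612) and Cacna2d1 by 0.04 (adjusted p = 0.906).

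The sequences upstream of these neighbours are shown because genes that follow each other on 1 chromosome differed in opposite directions. Each is the 250 bases before the start listed in the RefSeq promoter table, on the plus strand of GRCm38.p6, printed 5′ to 3′, with capitals marking a GC box (GGGCGG, or CCGCCC on the other strand). The windows are chr5:12382916-12383165 for Sema3d, chr5:14025026-14025275 for Sema3e and chr5:17574566-17574815 for Sema3c. The Sema3d window reaches 5 bases into the span of that gene. The window listed for Sema3a lies inside the span of the gene and is not shown.
Sema3d: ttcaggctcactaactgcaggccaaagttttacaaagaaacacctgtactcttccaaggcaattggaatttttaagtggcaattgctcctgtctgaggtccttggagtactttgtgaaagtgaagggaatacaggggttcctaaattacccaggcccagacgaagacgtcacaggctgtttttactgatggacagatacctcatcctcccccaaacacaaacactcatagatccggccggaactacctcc
Sema3e: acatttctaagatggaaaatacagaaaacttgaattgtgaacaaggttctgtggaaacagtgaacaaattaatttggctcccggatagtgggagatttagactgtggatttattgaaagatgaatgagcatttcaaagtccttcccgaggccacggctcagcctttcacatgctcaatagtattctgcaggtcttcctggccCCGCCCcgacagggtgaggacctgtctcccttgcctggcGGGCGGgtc
Sema3c: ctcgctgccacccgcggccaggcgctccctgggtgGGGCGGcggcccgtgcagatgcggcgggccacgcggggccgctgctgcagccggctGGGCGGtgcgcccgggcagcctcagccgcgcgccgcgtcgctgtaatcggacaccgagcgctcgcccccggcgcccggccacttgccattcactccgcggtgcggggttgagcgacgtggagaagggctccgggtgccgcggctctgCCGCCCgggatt

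The windows differ in base composition: G and C make up 46.8% of the Sema3d window, 48.0% of the Sema3e window and 78.4% of the Sema3c window. A search on both strands for a homeobox core (TAATTA), an E-box (CACGTG), a nuclear receptor core (AGGTCA), the GC box and a TATA box (TATAAA) found only GC boxes in the 3 windows, 0 in Sema3d, 2 in Sema3e and 3 in Sema3c, and none of the matches overlapped. A GC box was found in 32.7% of 32851 RefSeq promoter windows of the same length, the homeobox core in 4.84%, the E-box in 6.02%, the nuclear receptor core in 14.0% and the TATA box in 12.4%. The presence or absence of these letters describes the windows only. The gene higher in the fissure with the richest window, Sema3c, and the other gene higher there, Sema3d, stood at opposite ends of this range of composition.

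Sema3a, a repellent for many growing axons that binds Nrp1 and plexin A receptors, read 40.8, 67.2 and 76.7 on fissure arrays A, B and C. On the nasal arrays it read 365, 385 and 267, and on the temporal arrays 444, 411 and 348. The brightest fissure array lay far below the dimmest cup array, and the nasal and temporal arrays overlapped. Region means were 61.6 ± 18.6, 339 ± 63.4 and 401 ± 48.8 (SD, n = 3 each). The fissure was lower by 5.03-fold (log2 change -2.33, SE 0.19, limma adjusted p = 2.43e-05), and lower within each letter by differences of -2.88 to -1.79.

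Sema3e, the ligand that acts on Plxnd1 without a neuropilin and is best known from vessel patterning, showed a change of the same size. It read 20.0, 34.0 and 34.3 in the fissure, 186, 309 and 109.5 in the nasal and 223, 288 and 255 in the temporal cup. All fissure arrays were low, while the nasal arrays were spread widely, with B high and C low. The fissure mean was 29.4 ± 8.17 against 202 ± 101 and 255 ± 32.5 (SD, n = 3 each), which was lower by 5.20-fold (log2 change -2.38, SE 0.25, limma adjusted p = 1.52e-04). Sema3a and Sema3e passed under all 18 alternatives of the processing, in this comparison.

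Sema3c, which binds Nrp1 and Nrp2 together with Plxnd1 or plexin A receptors and is known for its part in the outflow tract of the heart, was higher in the fissure. It read 98.6, 67.0 and 98.1 there, 34.4, 18.6 and 20.4 in the nasal cup and 35.7, 19.5 and 22.1 in the temporal cup. The nasal and temporal values were almost the same letter by letter, and every fissure array lay above them. The change was 2.54-fold (log2 change 1.34, SE 0.19, limma adjusted p = 9.02e-04), and it passed under all 18 alternatives.

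Sema3d, also secreted, read 37.0, 41.2 and 35.8 in the fissure, 5.9, 19.0 and 0.9 in the nasal cup and 13.2, 13.4 and 8.6 in the temporal cup. It was dim: it exceeded the 40th percentile of its array on the 3 fissure arrays and on 1 nasal array, so it entered the test through the region where it was high. The fitted change was 1.08 (SE 0.20, limma adjusted p = 0.00593). The call was lost with a pseudocount of 1, at an adjusted p of 0.0688, the highest over its alternatives, which reached down to 2.45e-04. Its change against the temporal cup alone was 0.96 (adjusted p = 0.0340), a call lost without any 1 fissure sample (0.0557 to 0.110), any 1 temporal sample (0.0783 to 0.0984) or nasal sample A (0.0530), and under 4 other settings of the processing, with a range of 0.00272 to 0.258.

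The other class 3 genes lie on other chromosomes and did not pass. Sema3b read 41.5, 36.4 and 34.9 in the fissure, 17.6, 18.8 and 26.0 in the nasal and 35.3, 25.0 and 30.9 in the temporal cup. Its fissure arrays lay above all nasal arrays but overlapped with the temporal arrays. Against the nasal cup its change was 0.55 (limma adjusted p = 0.0691), which passed with the letter as a block (0.0329; 0.00626 to 0.247 over the alternatives). Sema3f, the usual partner of Nrp2, differed by -0.18 with a 95% interval of -0.61 to 0.25. Sema3g read 2.4 to 15.0 on all arrays and was not tested.

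**Figure D2:**
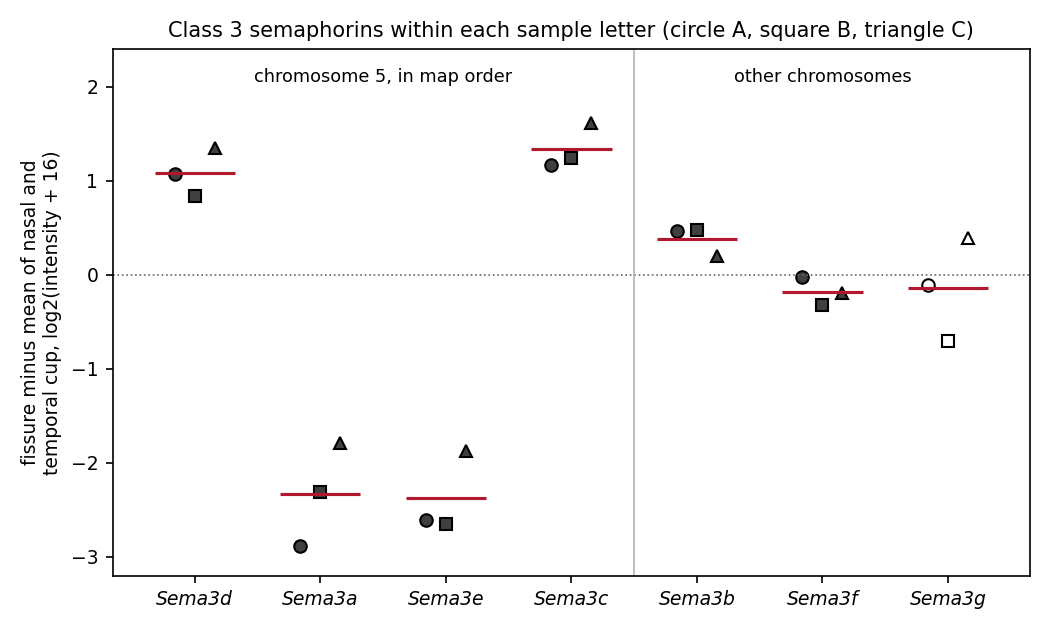
Fissure minus the mean of nasal and temporal cup for each class 3 semaphorin, in log2(intensity + 16), 1 symbol per sample letter, with the mean as a red line; open symbols mark the untested Sema3g. Sema3d and Sema3c lie above 0 and Sema3a and Sema3e below 0 in all 3 letters, with Sema3a between -2.88 and -1.79.

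The other 13 semaphorins are bound to the membrane. Of 2 class 5 genes 1 was higher in the fissure, of 3 tested class 6 genes 1 was higher, and none of 6 class 4 genes nor Sema7a passed, where 5.72% of all tested genes were higher and 2.88% lower. Sema5a, a transmembrane semaphorin with thrombospondin repeats that binds plexin receptors, read 606, 616 and 316 in the fissure. In the nasal cup it read 224, 99.5 and 120.4, and in the temporal cup 296, 232 and 189. Fissure array C stood well below A and B, only just above temporal array A. The change was 2.57-fold (log2 change 1.36, SE 0.27, limma adjusted p = 0.00869) and was lost without fissure sample A (0.0625). Against the nasal cup alone it was 1.70 (SE 0.31, adjusted p = 0.0071). In the comparison with the temporal cup alone it was 1.01 and did not pass (adjusted p = 0.0927), but passed with the letter as a block (0.0142) and without fissure sample C (0.0373), within a range of 0.0142 to 0.310 over the alternatives.

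Sema5b, the other class 5 gene, had another layout: it was brightest in the nasal cup. It read 42.6, 29.1 and 39.6 in the fissure, 78.8, 68.5 and 106.1 in the nasal cup and 47.2, 30.1 and 49.8 in the temporal cup. Fissure and temporal arrays overlapped, and every nasal array lay above both. The fissure was lower than the nasal cup by a log2 change of -0.91 (SE 0.20, limma adjusted p = 0.0199), a call lost without fissure sample C (0.0547), nasal sample A (0.0607) or nasal sample C (0.0771) and with the mean of its probe sets (0.0575), with a range of 0.00213 to 0.0771 over the alternatives. Against the temporal cup its change was -0.13, with a 95% interval of -0.57 to 0.31. Against the mean of both it was -0.52 (adjusted p = 0.0950), and passed with the letter as a block (0.0139; 0.0139 to 0.210 over the alternatives).

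Sema6d, a transmembrane ligand of Plxna1 that can itself signal in reverse, read 367, 216 and 294 in the fissure. It read 176, 100.7 and 154 in the nasal and 167, 122 and 146 in the temporal cup. Letter B was lowest in all 3 regions, and within each letter the fissure was higher by 0.87 to 1.03, a narrow range. The change was 1.91-fold (log2 change 0.93, SE 0.20, limma adjusted p = 0.0142). It was lost without fissure sample A (0.0990) or C (0.0651) and with the mean of all its probe sets (0.103), and reached down to 3.88e-04 under other alternatives. The nasal cup alone gave 0.95 (adjusted p = 0.0330), lost without fissure sample A (0.150) or C (0.107) or nasal sample B (0.117) or C (0.0672) and under 4 other settings, with a lowest value of 0.00128. The temporal cup alone gave 0.92 (adjusted p = 0.0434), lost without fissure sample A (0.191) or C (0.133), nasal sample A (0.0504) or C (0.0594), or any 1 temporal sample (0.0756 to 0.152), and under 4 other settings, with a range of 0.0016 to 0.362.

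Sema6c read 70.8, 40.8 and 29.1 in the fissure, 34.7, 33.1 and 20.3 in the nasal and 16.5, 22.0 and 23.4 in the temporal cup, with overlap. Its change of 0.58 did not pass (limma adjusted p = 0.111). Its change against the temporal cup alone was 0.73 (adjusted p = 0.109), and passed with the letter as a block (0.0496; 0.00396 to 0.381 over the alternatives). Sema6a, a ligand of Plxna2 and Plxna4, differed by -0.23 with a 95% interval of -0.63 to 0.18. Sema6b read 3.1 to 19.6 and was not tested. The class 4 genes, which bind mainly plexin B receptors, had changes from -0.25 (Sema4a) to 0.28 (Sema4g). Sema7a read 15.2 to 40.7, with overlapping regions and a change of -0.01 (95% interval -0.45 to 0.43).

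Both neuropilins, the ligand-binding receptors for class 3 semaphorins and for some VEGF forms, were higher in the fissure. Nrp1 read 239, 177 and 219.5 there, 100.7, 63.6 and 69.5 in the nasal and 125, 79.9 and 87.9 in the temporal cup. Every fissure array lay above every cup array, and the temporal value exceeded the nasal value in all 3 letters without passing the test. Region means were 212.0 ± 31.8, 77.9 ± 19.9 and 97.5 ± 24.0 (SD, n = 3 each). The change was 2.23-fold (log2 change 1.15, SE 0.18, limma adjusted p = 0.00193) and passed under all 18 alternatives. Against the temporal cup alone it was 1.02 (adjusted p = 0.0141) and was lost without fissure sample A (0.0760) or C (0.0563) and without temporal sample B (0.0620) or C (0.0508), and with the mean of its probe sets (0.0631), with a range down to 8.81e-04.

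Nrp2 read 80.5, 55.4 and 79.9 in the fissure, 36.2, 10.1 and 32.8 in the nasal and 46.7, 39.3 and 41.7 in the temporal cup. On this probe set the regions did not overlap, with the fissure highest and the nasal cup lowest, and nasal B lay far below the other nasal arrays. The other 2 tested probe sets gave nasal minus temporal differences of 0.08 and -0.08, so they do not show the temporal cup above the nasal. The change was 1.79-fold (log2 change 0.84, SE 0.22, limma adjusted p = 0.0330). It was lost without fissure sample A (0.159) or C (0.144) or any 1 temporal sample (0.0538 to 0.0626), with no filter, with quantile normalization and with a pseudocount of 1, and went down to 0.0018 elsewhere. Against the nasal cup alone it was 1.10 (adjusted p = 0.0219), lost without fissure sample A (0.0986) or C (0.0855) and with a pseudocount of 1 (0.0676). Against the temporal cup alone it was 0.57 and did not pass (adjusted p = 0.246; 0.00984 to 0.536 over the alternatives). Its other 2 tested probe sets passed there when tested on their own, at 0.83 (0.0329) and 0.93 (0.0373), as did the mean of its probe sets (0.00984) and the fit with array weights (0.0241). Endothelial cells also use neuropilins, and the endothelial marker sums are those given above.

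**Figure D3:**
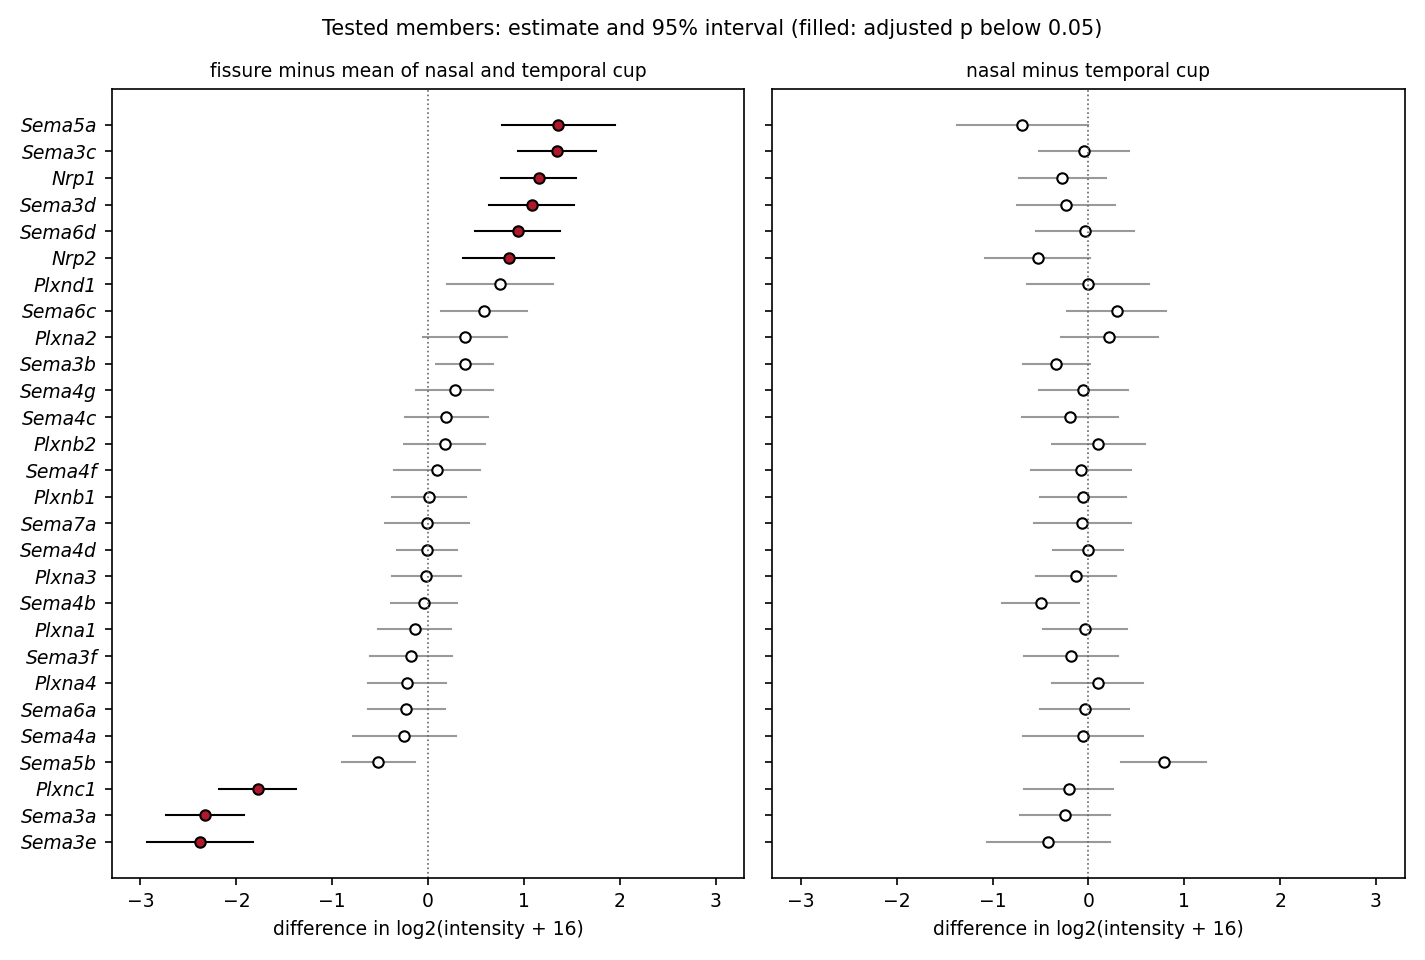
Change of each of the 28 tested genes in log2(intensity + 16), with its 95% interval, for fissure minus the mean of both cup regions (left) and nasal minus temporal cup (right); filled points passed at an adjusted p below 0.05. At left 6 genes lie to the right of 0 and 3 to the left among filled points, from -2.38 for Sema3e to 1.36 for Sema5a, and at right no point is filled.

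Among the plexins, the signalling receptors, Plxnc1 was lower in the fissure and the others did not pass. Of 8 tested plexins 0 were higher and 1 was lower (12.5%, against 8.6% of all tested genes). Plxnc1, the receptor of Sema7a, read 42.5, 78.5 and 78.7 in the fissure, 265, 249.9 and 211 in the nasal and 295, 318 and 235 in the temporal cup. Its brightest fissure array was far below the dimmest cup array. Region means were 66.6 ± 20.8, 242 ± 28.3 and 283 ± 42.6 (SD, n = 3 each). The fissure was lower by 3.42-fold (log2 change -1.78, SE 0.18, limma adjusted p = 1.21e-04), and the call held under all 18 alternatives. Its ligand Sema7a did not pass.

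Plxnd1, the receptor of Sema3e and a partner for Sema3c, read 106.0, 56.4 and 79.6 in the fissure, 34.1, 27.5 and 65.2 in the nasal and 52.7, 23.1 and 50.5 in the temporal cup. Fissure B fell below nasal C, so the regions overlapped, but within each letter the fissure was higher, by 0.38 to 1.06. Its change of 0.75 did not pass (limma adjusted p = 0.0973; 95% interval 0.20 to 1.30). It passed with the letter as a block (0.0131), without fissure sample B (0.0475) and without nasal sample C (0.0455), within a range of 0.00322 to 0.383 over the alternatives. With the block it also passed against the nasal cup (0.0299, in a range of 0.00843 to 0.504) and against the temporal cup (0.0320, in a range of 0.0166 to 0.527).

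Plexin A receptors, which pair with neuropilins for class 3 ligands, showed no passing change: 0 of 4 passed, with changes of -0.14 for Plxna1, 0.38 for Plxna2, -0.02 for Plxna3 and -0.22 for Plxna4. Their 95% intervals together reached from -0.63 to 0.82. Plxna2, the highest of them, read 98.4, 77.0 and 84.7 in the fissure, 92.8, 41.4 and 81.5 in the nasal and 68.5, 52.9 and 50.3 in the temporal cup. Its fissure arrays overlapped with the nasal but not with the temporal arrays. Of the plexin B receptors, Plxnb1, the receptor of Sema4d, changed by 0.01 and Plxnb2, a receptor of Sema4c, by 0.17, and neither passed.

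Plxnb3, a receptor of Sema5a, was too dim to test, since it exceeded the 40th percentile on 1 array. It read 15.1, 10.3 and 21.3 in the fissure, 3.4, 6.4 and 8.2 in the nasal and 3.6, 7.2 and 6.8 in the temporal cup. Fissure arrays did not overlap with the others at these low intensities. With all 18193 genes tested, its change was 0.52 (limma adjusted p = 0.0704). The other probe set of Plxnb3, dimmer still, ran the other way. Its means were 2.43 in the fissure, 4.4 in the nasal and 5.3 in the temporal cup, with overlapping arrays. Plxna4os1 read 1.4 to 18.2 and was not tested, which gives, with Plxnb3, Sema3g and Sema6b, the 4 untested genes.

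Other probe sets of the same genes bear on these values, since each reads another stretch of the transcript. The 10 genes that passed in a fissure comparison had 24 testable probe sets, of which 14 were not the brightest. Those 14 all had the sign of their gene's brightest probe set in fissure against the mean of both cup regions, and 10 of them passed when every probe set was tested on its own. In that test 5.74% of all 23510 probe sets passed. These genes had been picked by their brightest probe set on the same arrays, so the shares are not compared. Some of the 14 were also bright enough to test only through the region where they are high, so the filter favoured their sign. These are the dimmer tested probe sets of Sema3a and Sema3e, those of Plxnc1 at -0.73 and -0.46, and that of Nrp2 at 0.97. For Sema3a the 3 probe sets gave -2.33, -1.79 and -1.50, and for Sema3e -2.38, -2.84 and -1.74, all passing. Plxnc1 was uneven, with -1.78, -1.85, -0.73 and, not passing, -0.46 (limma adjusted p = 0.154). Nrp1 gave 1.15 and 1.12, which passed, and 0.68 and 0.94, which did not, while all 3 of Nrp2 passed at 0.84, 0.79 and 0.97. Sema3c, Sema3d and Sema6d had 1 testable probe set each. Among genes that did not pass, tested probe sets disagreed in sign for 6: Sema6c (0.58 and -0.23), Sema3f (-0.18, 0.19 and -0.09), Sema4f (0.09 and -0.18), Sema6a (-0.23, -0.27 and 0.33), Plxna3 (-0.02 and 0.40) and Plxnb1 (0.01 and -0.16).

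**Figure D4:**
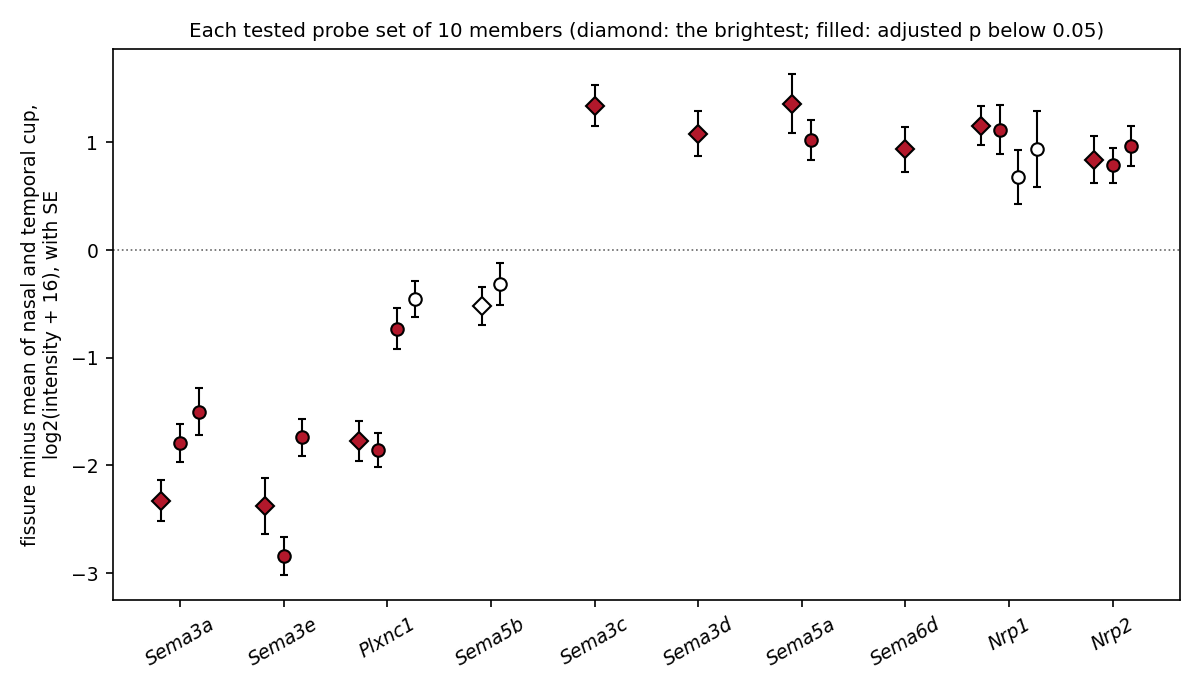
Fissure minus the mean of both cup regions in log2(intensity + 16), with SE, for each tested probe set of the 10 genes that passed in a fissure comparison; diamonds mark the brightest probe set and filled symbols an adjusted p below 0.05. All 14 circles lie on the side of 0 of their gene's diamond, and 10 of them are filled.

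Between the nasal and the temporal cup, none of the 28 tested genes passed, against 0.047% of all tested genes, and 3 had an unadjusted p below 0.05. Changes ran from -0.69 to 0.78, nasal minus temporal, and the 95% intervals together from -1.37 to 1.22. No member passed with the letter as a block, where 0.133% of all genes did, or under any other alternative named in the processing. The arrays of the 2 cup regions did not overlap for 3 of the 28 genes (10.7%), Sema5b, Sema4b and Nrp2, against 6.8% of all tested genes; for Nrp2 its other probe sets overlapped. Sema5b was higher in the nasal cup in all 3 letters, by 0.78 (SE 0.20, unadjusted p = 0.00234, limma adjusted p = 0.678; 0.107 to 1.0 over the alternatives), but its other probe set gave 0.11. Sema4b, a transmembrane ligand, read 116, 75.0 and 78.4 in the nasal and 128, 138 and 128 in the temporal cup. Its change was -0.50 (unadjusted p = 0.0188, adjusted p = 0.9999). Sema5a was lower in the nasal cup by -0.69 with overlapping arrays on its brightest probe set (unadjusted p = 0.0482, adjusted p = 0.9999). On its other tested probe set the arrays did not overlap, and the difference of -0.79 did not pass either (limma adjusted p = 0.9999).

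Co-receptors of the family and growth factors that bind neuropilins made up a list of 24 genes, of which 19 were tested. In fissure against the mean of both cup regions 3 were higher and 1 lower (21.1%, against 8.6% of all genes), with a median change of 0.15. With the letter as a block again 3 were higher and 1 lower, where 16.9% of all genes passed. Met, the receptor of hepatocyte growth factor that can pair with plexin B receptors, was the lower gene, at 53.2 ± 4.57 in the fissure, 187 ± 5.03 in the nasal and 102 ± 10.1 in the temporal cup (SD, n = 3 each). Its change was -1.16 (SE 0.12, limma adjusted p = 1.58e-04), and its nasal arrays all lay above its temporal arrays (0.79, adjusted p = 0.164). Vegfc, a growth factor that binds Nrp2, read 152 ± 35.3 in the fissure, 70.9 ± 10.8 in the nasal and 92.0 ± 3.17 in the temporal cup (change 0.78, adjusted p = 0.0105). Cntn1, an axonal adhesion protein, was higher by 1.10 (adjusted p = 0.0162). Tyrobp, an adaptor in plexin A1 complexes of myeloid cells, was higher by 2.06 (adjusted p = 2.61e-04), beside the 11 leukocyte markers that were all higher.

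Of 40 cytoplasmic effectors, the proteins that carry the plexin signal to the cytoskeleton, 37 were tested. With 2 higher and 0 lower, their share of 5.41% lay below the background of 8.6%, and with the letter as a block 4 were higher and 2 lower, where 16.9% of all genes passed. Dpysl3, a collapsin response mediator protein, read 836 ± 145 in the fissure, 272 ± 57.0 in the nasal and 350.0 ± 21.5 in the temporal cup (SD, n = 3 each). It was higher by 2.62-fold (log2 change 1.39, SE 0.17, limma adjusted p = 3.47e-04). Fes, a tyrosine kinase that binds plexin A1 and is abundant in myeloid cells, was higher by 0.85 (adjusted p = 0.0190). Like Sema3d, Fes reached the brightness needed for the test only through the fissure arrays, where it is high, so its direction is not separate support. Between the nasal and the temporal cup none of the 19 co-receptors and ligands and none of the 37 effectors passed (3 of each at an unadjusted p below 0.05), and with the block 0 and 1 did.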

How the data were processed

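The deposited values were probe set intensities on a linear scale, made by the authors in a way not given in the sources used here. On every array their mean after trimming 2% from each end was 150, and no further scaling was applied. Of 45101 probe sets, 34945 had 1 gene symbol in the platform annotation, which can be old, 932 had several and 9160 were unnamed, and 64 were controls. All 32 member symbols match RefSeq.

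A gene was its brightest single-symbol probe set (mean over 9 arrays). Values became log2(intensity + 16), so changes of dim genes are understated. Genes above the 40th percentile of their array on at least 3 arrays were tested, which left 12773. limma 3.58.1 in R 4.3.3 (lmFit, eBayes) fitted 1 mean per region to all 9 arrays, and p-values were adjusted by Benjamini-Hochberg over all tested genes, with a threshold of 0.05. Depth does not apply to arrays, and the number of arrays sets the precision.

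Calls come from this fit without the letters, and adding the letter as a blocking factor is an alternative. The data, not the labels, speak for a pairing by letter: deviations from region means correlated at 0.166 to 0.486 in 9 same-letter pairs and at -0.438 to 0.218 in 18 others. On simulated data, 200 of 12773 genes were raised by 0.5, 1 or 2 on the log2 scale. Fissure against both cup regions recovered 10.4%, 74.6% and 93.9% of them, and nasal against temporal cup 4.48%, 55.2% and 90.9%. The simulated noise was independent between arrays, without the deviations shared by letter. Fewer genes were changed than the 1098 called in the data for fissure against both cup regions. These shares are therefore not the power of the test in these data.

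The members and the gene lists were chosen with earlier results of these data known. Members that passed are named with all values, others by ranges or where their intervals or probe sets are stated, and from each pathway list genes with the smallest p among those that passed. Alternatives covered the filter, normalization, pseudocount, probe set summary, variance model, array weights, letter block, regions fitted and each array left out. Some genes of the marker and pathway lists are not reported here. Figures were drawn with matplotlib 3.10.9.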

Additional observations from a re-analysis of the deposited data

How the results depend on the processing

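For the 26 member changes that passed, 545 alternative values were computed, of which 475 kept the call, 70 lost it and 0 changed direction. Of 264 alternative values for 13 changes that had an unadjusted p below 0.05 without passing, 25 passed, and 1 was reversed: the other probe set of Sema6c gave -0.23 in fissure against the mean of both cup regions. With array weights 14 members passed in that comparison and 11 against the temporal cup, where 32.1% and 24.5% of all tested genes passed; the first added Plxnd1, Sema3b, Sema4g, Sema5b and Sema6c and the second Nrp2, Plxnd1, Sema5a and Sema6c. Leaving out 1 array at a time gave 6 to 10 members against the mean of both and 7 to 10 against the nasal cup. Against the temporal cup it gave 4 to 7, with 4 left without fissure sample A, temporal sample B or temporal sample C. The share of all genes passing in these fits is not reported here, so the counts are not read against it. With the letter as a replicate block the members passing were 11, 12, 10 and 0 in the 4 comparisons, and the share of all genes rose to 16.9%, 12.4%, 12.1% and 0.133%; the calls it changed are given with their genes, and it changed no other member call. Against the temporal cup, Sema3d and Sema6d passed in 7 of 18 and 8 of 19 alternatives, and for each 7 of its 11 losses came from leaving out 1 array. Dim genes limit the test: 4 members lay too low to be tested, and Sema3d was not tested with the mean of probe sets.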
